A study of Rattus norvegicus with 6 samples.

Results

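The genes described here are 5 members of the inflammatory response, Il1b (ENSRNOG00000004649), Cxcl1 (ENSRNOG00000002802), Ccl2 (ENSRNOG00000007159), Icam1 (ENSRNOG00000020679) and Ptgs2 (ENSRNOG00000002525). They were chosen by name and looked up by Ensembl identifier, and all 5 were among the 20159 genes of the deposited expression table. The table lists identifiers only, so the pairing of each symbol with its identifier comes from the choice of the genes and not from the table. 4 of the 5 had a mean of at least 1 FPKM, that is, read counts scaled by gene length and by the library total, and were among the 12085 genes tested. Il1b did not reach that level.

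The study concerns the conversion of rat keratinocyte progenitors, dividing epithelial cells of the epidermis, towards corneal epithelium under the influence of cells of the limbal niche, the surroundings of the stem cells at the edge of the cornea. RNA sequencing of polyadenylated RNA gave 3 libraries labelled primary keratinocyte progenitors and 3 labelled limbal niche, all with epidermis as the tissue. The design text describes 14 days of culture on Matrigel in keratinocyte medium, or in that or a hormonal epithelial medium mixed with conditioned medium of limbal niche cells. Which medium a library had is not in the labels, nor whether the limbal niche libraries hold niche cells or exposed keratinocytes, nor the strain, sex or age of the rats. Replicates are labelled as biological, without a statement that they came from separate animals, so p-values measure the spread between these samples only.

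Interleukin-1 beta, the product of Il1b, is a secreted cytokine that activates the transcription factor NF-kappaB in responding cells, as do tumour necrosis factor and bacterial products. Cxcl1, Ccl2, Icam1 and Ptgs2 are well-known targets of this response. The CXCL1 protein draws neutrophils through CXCR2, and CCL2 draws monocytes through CCR2. ICAM1 is a surface protein that leukocyte integrins bind, and PTGS2 (COX-2) is the inducible enzyme that starts prostaglandin synthesis from arachidonic acid. Keratinocytes and stromal fibroblasts can both produce all 4 after injury or cytokine exposure.

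The bases before the starts of Cxcl1 and Ptgs2 are shown so that the promoters of this pair can be read side by side. The pair shared none of the motifs searched. Both lines give the 150 bases just before the transcript start in RefSeq (GRCr8), 5′ to 3′ on the gene's strand, at chr14:17479322-17479471 on the minus strand for Cxcl1 and at chr13:64713913-64714062 on the plus strand for Ptgs2. Capitals mark matches to the motifs searched.
Cxcl1: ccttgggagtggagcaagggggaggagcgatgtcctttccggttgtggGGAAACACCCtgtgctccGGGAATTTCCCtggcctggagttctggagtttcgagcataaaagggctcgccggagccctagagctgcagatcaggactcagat
Ptgs2: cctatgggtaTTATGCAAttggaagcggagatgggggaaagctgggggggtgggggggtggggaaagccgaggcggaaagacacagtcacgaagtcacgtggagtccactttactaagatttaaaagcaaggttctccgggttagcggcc

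4 of the 5 genes, Il1b, Cxcl1, Icam1 and Ptgs2, matched the promoter table by symbol. Its windows run from 250 bases before to 50 bases after a transcript start, and motifs were searched in them on both strands. A kappaB-like motif, written as GGG, any 2 bases and TTTCC, matched the Cxcl1 window at 2 places, starting 102 and 84 bases before the start, and matched none of the other 3 windows. Of all 33469 windows, 1.53% hold this motif. The looser form of GGG, any 3 bases and TTCC, which covers every match of the first, gave 3 matches in Cxcl1, starting 102, 84 and 83 bases before the start, the last 2 of them overlapping, and it is held by 5.37% of all windows. The C/EBP-like motif TTGCNNAA matched Ptgs2 140 bases before the start and Il1b 33 bases after it, and is held by 10.6% of windows. TATAAA matched Il1b 60 and Icam1 53 bases before the start, with 14.2% of windows holding it. The AP-1 motif TGANTCA and the CRE motif TGACGTCA, held by 7.33% and 1.83% of windows, matched none of the 4 windows. These matches describe letters only.

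The libraries were close to equal in depth, with totals of 17678076 to 18237668 reads recovered from the FPKM values. They did not sort by label over all tested genes. Keratinocyte progenitors 2 and 3 were nearly alike (Pearson correlation of log2(FPKM + 1) across genes 0.995). The other pairs ran from 0.968 down to 0.883, the last between limbal niche 1 and 3. Keratinocyte progenitor 1 was closest to limbal niche 3 and 2 (0.968 and 0.962), above keratinocyte progenitors 2 and 3 (0.927 and 0.923). Limbal niche 1 was closest to keratinocyte progenitors 3 and 2 (0.931 and 0.925), above limbal niche 2 and 3 (0.887 and 0.883). Lists of cell type marker genes and inflammatory genes held 124 symbols, the genes described here among them. The other symbols could not be looked up, because none of the 47357 rows of the reference gene table carries an Ensembl identifier. The labelled cell types were therefore not checked against their markers, and leukocyte, stromal or endothelial RNA was not tested as a companion of any value below. In bulk RNA, more cells of a type and more RNA per cell cannot be told apart.

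Il1b, the upstream cytokine of the set, was at the limit of detection in every library. It had 0, 3 and 2 reads in keratinocyte progenitors 1, 2 and 3, and 3, 0 and 0 reads in limbal niche 1, 2 and 3. In FPKM these were 0, 0.119 and 0.0806, and 0.122, 0 and 0. A count of 0 allows up to 3 reads, or 0.118 to 0.120 FPKM in the 3 libraries without a read. No order of the libraries and no fold change can be read from these counts, and 15.8% of the genes in the table had a lower mean. The other 4 genes had means of 11.2 to 60.8 FPKM over the 6 libraries.

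Cxcl1, the neutrophil chemokine, was at 29.9, 36.2 and 35.9 FPKM in keratinocyte progenitors 1, 2 and 3. In limbal niche 1, 2 and 3 it was at 65.7, 29.4 and 28.4 FPKM. Limbal niche 1 was 1.82 times the next library, and limbal niche 2 and 3 lay below all 3 keratinocyte progenitor libraries in deposited FPKM. Under median-of-ratios scaling limbal niche 2, at 32.3, lay above keratinocyte progenitor 1, at 30.2, while limbal niche 3 stayed lowest. The 2 groups thus overlapped, with limbal niche holding both the highest and the lowest value. Without limbal niche 1, the remaining 5 libraries spanned 1.28-fold.

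Ccl2, the monocyte chemokine, varied most of the 4 tested genes. Its FPKM values were 38.7, 18.9 and 19.4 in keratinocyte progenitors 1, 2 and 3. Those of limbal niche 1, 2 and 3 were 238, 37.3 and 12.6. Limbal niche 1, with 3514 reads, was 6.15 times keratinocyte progenitor 1, the next library, and 18.9 times limbal niche 3, the lowest, with 190 reads. The other libraries fell in 3 steps, with keratinocyte progenitor 1 and limbal niche 2 close together, keratinocyte progenitors 2 and 3 at about a 2-fold lower level, and limbal niche 3 lowest.

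Ptgs2, the inducible prostaglandin enzyme, was at 7.57, 8.09 and 8.75 FPKM in keratinocyte progenitors 1, 2 and 3. In limbal niche 1, 2 and 3 it was at 32.8, 7.52 and 2.33 FPKM. 4 libraries of both groups therefore sat between 7.52 and 8.75 FPKM, with limbal niche 1 at 3.74 times the next library and limbal niche 3 at the bottom. The span from lowest to highest was 14.1-fold.

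Icam1, the leukocyte adhesion molecule, had a narrower range and another order. Its values were 32.9, 45.3 and 43.6 FPKM in keratinocyte progenitors and 45.6, 33.5 and 42.9 FPKM in limbal niche, in the order of the replicate numbers. Limbal niche 1 was again the highest, but its ratio to keratinocyte progenitor 2 was 1.01, with a 95% counting interval of 0.946 to 1.07. Keratinocyte progenitor 1 and limbal niche 2 formed the low pair, and the other 4 libraries sat between 42.9 and 45.6 FPKM. The whole span was 1.39-fold, and 89.4% of tested genes had a larger one.

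**Figure D1:**
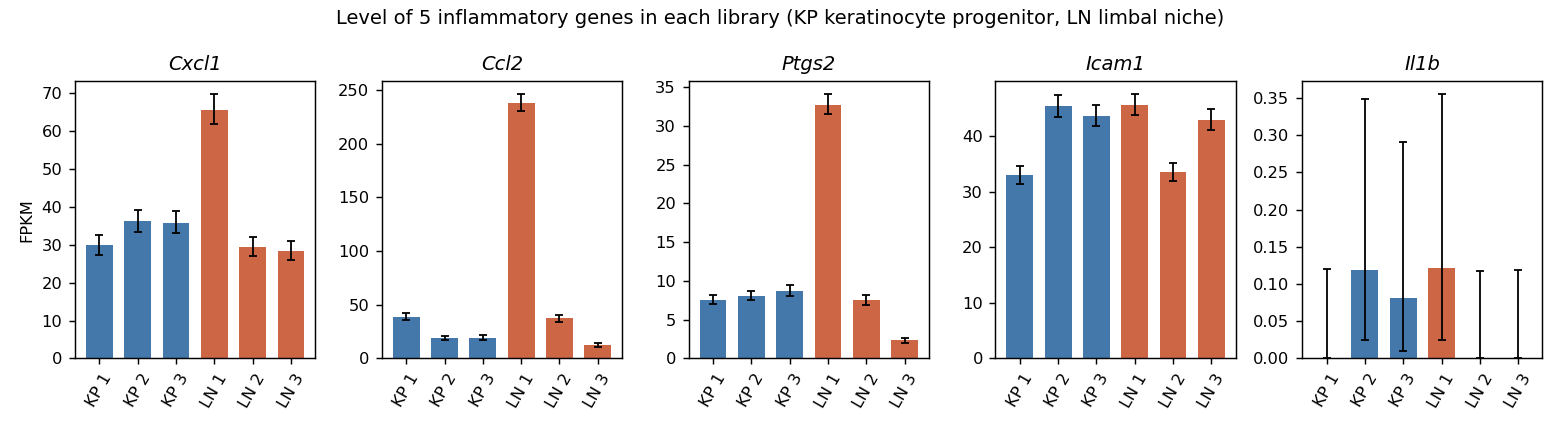
Bars give the FPKM of each gene in each library, blue for the 3 keratinocyte progenitor (KP) and orange for the 3 limbal niche (LN) libraries, and whiskers the exact Poisson 95% interval of the recovered reads (counting error only; at 0 reads, up to the 3 reads that a count of 0 allows). Each panel has its own axis. Limbal niche 1 stands above the other 5 libraries for Cxcl1 (65.7), Ccl2 (238) and Ptgs2 (32.8 FPKM), Icam1 stays between 32.9 and 45.6, and Il1b has at most 3 reads.

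The central question was whether the genes were high in the same libraries. Cxcl1, Ccl2 and Ptgs2 were all highest in limbal niche 1 and lowest in limbal niche 3, so that the 2 ends of their range lay inside 1 labelled group. For Cxcl1 the low end was not clear of its neighbours, since limbal niche 3, limbal niche 2 and keratinocyte progenitor 1 agree within counting error. On the scale of log2(FPKM + 1) relative to the gene's own median over the 6 libraries, limbal niche 1 stood at 3.03 for Ccl2, 1.93 for Ptgs2, 0.98 for Cxcl1 and 0.07 for Icam1. Limbal niche 3 stood at -1.11 for Ccl2, -1.41 for Ptgs2, -0.21 for Cxcl1 and -0.01 for Icam1. Under median-of-ratios or upper-quartile scaling, limbal niche 1 was still the highest library for these 4 genes.

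Between these ends the genes parted. Keratinocyte progenitors 2 and 3 were above keratinocyte progenitor 1 and limbal niche 2 for Cxcl1, Ptgs2 and Icam1, and below them for Ccl2. For Ptgs2 the lead of keratinocyte progenitor 2 over those 2 libraries was within counting error. Icam1 in limbal niche 3, at 42.9 FPKM, was above keratinocyte progenitor 1 and limbal niche 2, where the other 3 genes were at their lowest in limbal niche 3. With median-of-ratios scaling limbal niche 2 also passed keratinocyte progenitor 2 for Ptgs2, at 8.26 against 7.74, so those parts of the order rest on the scaling. Correlations between the genes were not used as a result, because keratinocyte progenitors 2 and 3 are nearly alike and the libraries are then not 6 independent points.

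**Figure D2:**
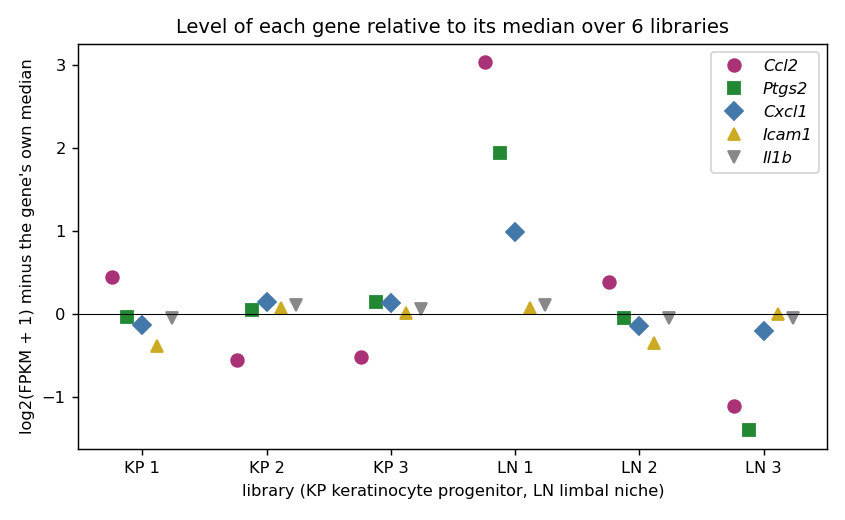
Points give log2(FPKM + 1) of each gene minus that gene's median over the 6 libraries, by library (KP keratinocyte progenitor, LN limbal niche). Ccl2, Ptgs2 and Cxcl1 stand highest in limbal niche 1 (3.03, 1.93 and 0.98) and lowest in limbal niche 3, while Icam1 stays near 0 in limbal niche 1. The level of Il1b is too low for its points to move far from 0 on this scale.

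In deposited FPKM, keratinocyte progenitor 1 and limbal niche 2 had almost the same level of all 4 measurable genes although their labels differ. The ratio of limbal niche 2 to keratinocyte progenitor 1 was 0.985 for Cxcl1, 0.963 for Ccl2, 1.02 for Icam1 and 0.993 for Ptgs2, and each 95% counting interval held 1. Of the tested genes, 8.51% were as close as 1.04-fold between these 2 libraries. The match depends on the scaling. Under median-of-ratios scaling limbal niche 2 lay above keratinocyte progenitor 1 for all 4 genes, for Icam1 at 36.8 against 33.2. Keratinocyte progenitors 2 and 3 were likewise within counting error for all 4, at most 1.08-fold apart, where 59.9% of tested genes were as close. In none of the other 13 pairs did more than 1 of the 4 genes have a counting interval that held 1.

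Many other genes were also set apart in limbal niche 1. It was the highest library for 23.1% of the tested genes, and for 217 genes it was at least 3 times the next library in FPKM, against 1 to 48 genes in each of the other 5. On the log2(FPKM + 1) scale its lead over the highest other library was 2.59 for Ccl2, reached by 0.339% of tested genes (41 genes). The lead was 1.79 for Ptgs2, reached by 1.07%, and 0.84 for Cxcl1, reached by 3.55%. For Icam1 it was 0.01, reached by 22.6%. Whether the composition of the cells in limbal niche 1 has a part in these values was not tested.

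**Figure D3:**
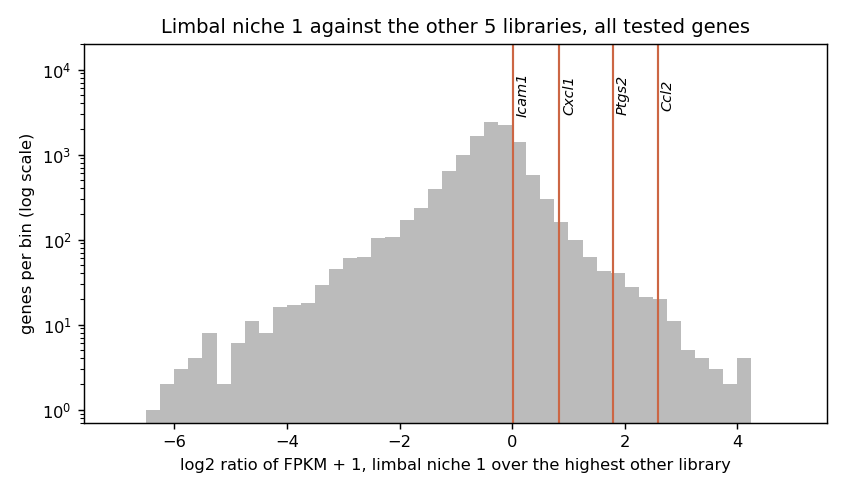
Grey bars count the 12085 tested genes by the log2 ratio of FPKM + 1 in limbal niche 1 over the highest of the other 5 libraries, on a log count axis, and vertical lines mark the genes described. Icam1 lies at 0.01, Cxcl1 at 0.84, Ptgs2 at 1.79 and Ccl2 at 2.59, the last in the far right tail.

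The spread across libraries was wide for Ccl2 and Ptgs2 and ordinary or narrow for the others. A larger ratio of highest to lowest library was found in 3.5% of tested genes for Ccl2 (18.9-fold) and in 4.4% for Ptgs2 (14.1-fold). The corresponding share was 37.0% for Cxcl1 (2.32-fold). Among the 5773 genes with means of 10 to 100 FPKM, where all 4 lie, the median ratio was 1.76, and larger ratios than that of Ccl2, Ptgs2, Cxcl1 and Icam1 were found in 1.5%, 2.0%, 25.9% and 84.6%.

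The comparison implied by the labels is limbal niche against keratinocyte progenitors, and none of the 4 tested genes passed it. Mean levels were 34.0 ± 3.56 against 41.2 ± 21.2 FPKM for Cxcl1, 25.7 ± 11.3 against 96.0 ± 124 for Ccl2, 40.6 ± 6.74 against 40.7 ± 6.33 for Icam1 and 8.14 ± 0.59 against 14.2 ± 16.3 for Ptgs2 (keratinocyte progenitors first, SD, n = 3 each). For Ccl2 and Ptgs2 the SD of limbal niche exceeded its mean. The log2 fold change of FPKM + 1 was 0.98 for Ccl2 (SE 0.98, 95% interval -1.36 to 3.32, limma adjusted p = 0.838). It was 0.16 for Cxcl1 (SE 0.34, -0.64 to 0.97, limma adjusted p = 0.93) and 0.11 for Ptgs2 (SE 0.77, -1.72 to 1.94, limma adjusted p = 0.975). For Icam1 it was 0.00 (SE 0.20, -0.48 to 0.49, limma adjusted p = 0.996). Every SD, SE, interval and p-value here counts the nearly alike keratinocyte progenitors 2 and 3 as separate replicates.

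0 of the 4 genes were called at an adjusted p under 0.05, against a background of 0% of the 12085 genes. At an unadjusted p under 0.05 the count was again 0 of 4, where 5.85% of all tested genes passed. The 3 values of each group overlapped for all 4 genes, while 11.9% of tested genes had groups without overlap. The intervals of Ccl2 and Ptgs2 were wide enough to hold a change of more than 2-fold in either direction, so these libraries do not show that the levels were alike. That of Icam1 stayed within 0.49 on the log2 scale.

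Leaving out limbal niche 1 alone turned the sign of the differences of Ccl2, Cxcl1 and Ptgs2. It moved Icam1 from 0.00 to -0.08 (limma adjusted p = 0.866). Without limbal niche 1 the log2 fold change was -0.15 for Ccl2 (limma adjusted p = 0.901), -0.22 for Cxcl1 (limma adjusted p = 0.563) and -0.78 for Ptgs2 (limma adjusted p = 0.461). With keratinocyte progenitor 1 left out as well, it was 0.18 for Ccl2 (limma adjusted p = 0.818). Without limbal niche 3, the library with the lowest values, it was 1.92 for Ccl2 (limma adjusted p = 0.591), 0.37 for Cxcl1 (limma adjusted p = 0.776) and 0.89 for Ptgs2 (limma adjusted p = 0.692). For all 3 genes the SD among the limbal niche libraries was larger than the difference between the group means.

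**Figure D4:**
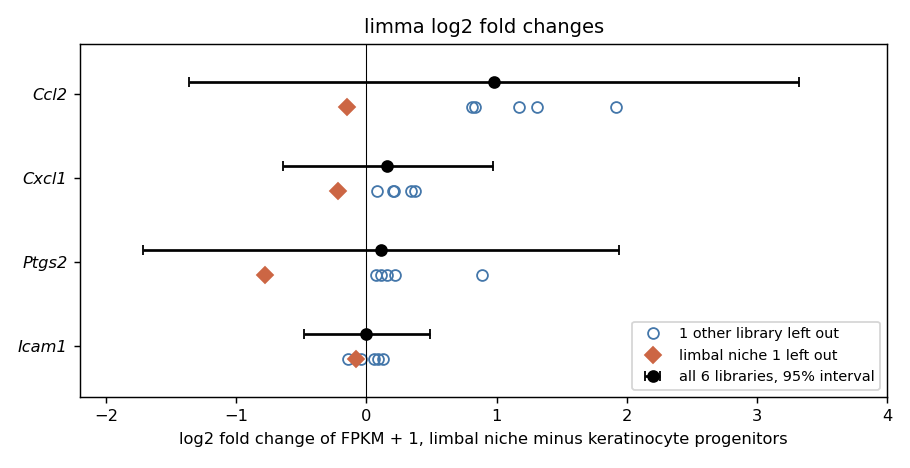
Black points and whiskers give the limma log2 fold change of FPKM + 1, limbal niche minus keratinocyte progenitors, with its 95% interval from all 6 libraries. Open circles leave out 1 other library and orange diamonds leave out limbal niche 1, which moves Ccl2 from 0.98 to -0.15, Cxcl1 from 0.16 to -0.22 and Ptgs2 from 0.11 to -0.78.

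The genes most like the 4 across the libraries were sought with the mean of their standardized log2(FPKM + 1) values, a profile of 1.58 in limbal niche 1, -0.49, 0.05 and 0.00 in keratinocyte progenitors 1, 2 and 3, and -0.48 and -0.67 in limbal niche 2 and 3. The 2 closest of 12081 other genes were ENSRNOG00000021170 and ENSRNOG00000018526, both with a Pearson correlation of 0.998 over the 6 libraries, given only as the measure of likeness since these are not 6 independent points. ENSRNOG00000021170 was at 9.33 FPKM in limbal niche 1 and at 0.619 to 2.09 FPKM elsewhere. ENSRNOG00000018526 was at 6.33 FPKM there and at 0.498 to 1.64 FPKM elsewhere. A correlation of at least 0.95 was reached by 289 genes, or 2.39%. The profile is set largely by limbal niche 1, so these values restate which genes were high in that library.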

How the data were processed

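The authors deposited 1 table of FPKM values with a column per library, per the labels, for 20159 Ensembl identifiers. FastQC, Trim Galore and DESeq2 are listed, without versions, in the submitters' processing notes; aligner, counter, annotation, build and strandedness: not given in the sources used here. FPKM divides out length and library total but not composition. Groups and replicate numbers came from the sample titles and columns from the sample descriptions. The 5 genes, the lists and the tests were chosen with earlier results of these data known.

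Whole reads were recovered from the FPKM values, since each is a whole number divided by a length and a total. All 20159 genes gave whole reads within 1e-06. Intervals from reads are exact Poisson or conditional binomial at 95% and cover counting error only, and a count of 0 was taken to allow 3 reads.

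Groups were compared by limma 3.58.1 (R 4.3.3) from log2(FPKM + 1) values, with group as the only term, moderated variances with a trend, and Benjamini-Hochberg adjustment over the 12085 genes whose mean reached 1 FPKM. Both steps were tested on simulated data. The genes named are the 5 and the 2 whose pattern was most like theirs. Alternatives were other pseudocounts, filters, scalings, variance settings, library weights, a replicate block, limma-voom on recovered reads and left-out libraries. Promoters and their coordinates are RefSeq's (GRCr8), matched by symbol.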

Additional observations from a re-analysis of the deposited data

How the results depend on the processing

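None of the 4 tested genes passed an adjusted p under 0.05 in any of the 21 alternatives. The log2 fold change of Ccl2 was positive in 20 of them, and that of Cxcl1 and Ptgs2 in 18 each. That of Icam1, which is 0.00 with all libraries, was above 0 in 5, at 0.00 in 9 and below 0 in 7. The log2 fold change cannot move with the filter, variance settings or replicate block, so the counts include alternatives that repeat the value already given. Leaving out 1 library in turn, the log2 fold change ran from -0.15 to 1.92 for Ccl2, -0.22 to 0.37 for Cxcl1, -0.78 to 0.89 for Ptgs2 and -0.14 to 0.13 for Icam1. The negative values of Ccl2, Cxcl1 and Ptgs2 in these fits came without limbal niche 1. With library weights the log2 fold change was 0.56 for Ccl2, -0.14 for Cxcl1, -0.53 for Ptgs2 and -0.15 for Icam1. That fit weights keratinocyte progenitors 2 and 3 at 8.90 and 7.48 and limbal niche 1 at 0.21. With both libraries numbered 1 left out the log2 fold change was 0.18 for Ccl2, -0.31 for Cxcl1, -0.82 for Ptgs2 and -0.22 for Icam1. Icam1 was also at -0.07 under scaling that leaves out the 50 most abundant genes, and at -0.01 after quantile normalization. The causes were not tested. The untested difference of Il1b, -0.04, was -0.28 with a pseudocount of 0.1 and -0.14 with both libraries numbered 1 left out, and it rests on 8 reads in all.

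Over all genes, 0 were called with all 6 libraries, and 0 to 2 leaving out 1 library. The count was 11 of 20159 without a filter on low values and 1804 of 12085 without both libraries numbered 1. In the latter fit the nearly alike keratinocyte progenitors 2 and 3 are the whole keratinocyte progenitor group. None of the 4 genes was among those called, which with 4 genes is not a finding about them. Without both libraries numbered 1, Cxcl1 had a limma unadjusted p of 0.044 and a limma adjusted p of 0.125. In that fit 4479 of the 12085 tested genes had a limma unadjusted p under 0.05. Nothing in the labels ties same-numbered libraries together, so the numbers were not taken as pairs. Deviations of same-numbered libraries from their group means were negatively correlated over all tested genes (-0.48, -0.35 and -0.25), which is no test of pairing. A replicate block cannot change the log2 fold changes, because every replicate number occurs in both groups. The fit with this block called 0 genes, with 328 at an unadjusted p under 0.05 against 707 without it.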
